A study of Homo sapiens with 16 samples.

Results

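VEGFA, TPI1 and P4HA2 are genes that low oxygen is known to switch on in many cell types, and they were read here in AsPC-1, an established line of human pancreatic adenocarcinoma cells. The members were the probe sets annotated to 1 of these genes alone, which gave 3 genes of the 5250 compared and 5 probe sets of 9554 (3 for VEGFA and 1 each for TPI1 and P4HA2). The 3 genes had been chosen with their values in all 6 groups known, so their levels and changes are given as a description, with no test. In the drug experiment ICG-001 was given at 10 µM. It is a small molecule known to bind the coactivator CBP and to disturb its contact with β-catenin, and the other cells received the vehicle DMSO. Each treatment had 3 arrays at 6 h and 3 at 24 h. In the separate siRNA experiment the cells were transfected by lipofectamine 2000 with siRNA against CTNNB1, the gene of β-catenin, or with a control siRNA, each at 20 nM, and 2 arrays per group were made at 48 h. All drug arrays came from cells in RPMI with 10% FCS, no group was labelled as kept in low oxygen, and each of the 16 arrays held RNA of this single line.

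Cells sense oxygen through prolyl hydroxylases of the EGLN family, which mark the α subunits of the hypoxia-inducible factors (HIF) for removal by the VHL ubiquitin ligase. When oxygen is short the α subunits persist, pair with ARNT, recruit coactivators such as CBP and switch on genes for blood vessel growth, glucose breakdown and matrix building. VEGFA encodes a secreted growth factor that drives vessel growth, TPI1 encodes triosephosphate isomerase, an enzyme of glycolysis, and P4HA2 encodes a catalytic α subunit of the collagen prolyl 4-hydroxylase. Pancreatic adenocarcinoma is known as a poorly perfused tumour rich in collagen. VEGFA is also known to be induced by other signals, among them the integrated stress response.

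The members did not move as 1 group. VEGFA was higher with ICG-001 than with DMSO at both times and lower with CTNNB1 siRNA than with control siRNA. TPI1 was lower in all 3 comparisons. P4HA2 had no settled direction with ICG-001 at 6 h, and was higher with it at 24 h and higher with CTNNB1 siRNA.

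The values are deposited intensities on a linear scale, and each log2 change below comes from a model across all genes fitted to log2(intensity + 16) after quantile normalization, with the change under the authors' own scaling beside it. Mean intensity over all probe sets ran between 163.7 and 178.9 on ICG-001 arrays, between 131.7 and 136.8 on DMSO arrays and between 105.5 and 109.6 on siRNA arrays, and the array medians differed by 0.636 on the log2 scale. The choice of scaling matters for the members, whose mean log2 values stood at percentile 97.98 (VEGFA), 95.64 (TPI1) and 98.38 (P4HA2) of all genes. The 263 genes that make up the brightest 5% had a median log2 change at 6 h of -0.20 in the quantile-normalized values and 0.20 under the deposited scaling, and at 24 h of -0.16 and 0.27. Over all 5250 genes the medians at 24 h were -0.02 and 0.09. Between the drug and the siRNA experiment, the effects of time, transfection and experiment cannot be told apart. Arrays of a group are labelled as biological replicates. Whether each had its own culture is not stated, so p-values for the other genes measure the spread between these arrays. In an array of bulk RNA, fewer expressing cells and less RNA per cell cannot be told apart. CTNNB1 itself was not analysed here, so the siRNA labels were not checked on their target.

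VEGFA was read best by probe set 210512_s_at, on which it was among the most strongly raised genes with ICG-001. With ICG-001 at 6 h its intensity was 3772, 3771 and 3692 on the 3 arrays, against 881, 841 and 873 with DMSO. At 24 h it was 3930, 4017 and 3734 with ICG-001, against 1189, 1029 and 1083 with DMSO. Every ICG-001 array therefore lay far above every DMSO array at its time, while the ICG-001 arrays of both times overlapped. Mean intensity was 3745 ± 45.9 with ICG-001 and 865 ± 21.0 with DMSO at 6 h (SD, n = 3 each), a ratio of 4.33. At 24 h the means were 3894 ± 145 and 1100.3 ± 81.6, a ratio of 3.54. The log2 change at 6 h was 1.61 ± 0.06 (± SE), or 3.05-fold, and 2.09 under the deposited scaling. At 24 h it was 1.27 ± 0.06, or 2.41-fold, and 1.81 under the deposited scaling. Ranked from the highest change, VEGFA stood at rank 21 of 5250 genes at 6 h (14 under the deposited scaling) and at rank 57 at 24 h (31 under the deposited scaling).

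With CTNNB1 siRNA the VEGFA intensity was 755 and 688, against 1175 and 1203 with control siRNA. Both CTNNB1 siRNA arrays lay below both control arrays, and means were 722 ± 47.4 and 1189 ± 19.5 (SD, n = 2 each). The log2 change was -0.80 ± 0.07, or 0.574-fold, and -0.71 under the deposited scaling, rank 137 counted from the lowest change. The drug and the knockdown thus stood on opposite sides of their controls. The DMSO arrays themselves were higher at 24 h than at 6 h by 0.30 ± 0.06 on the log2 scale (0.34 under the deposited scaling), and these DMSO arrays are the same ones that the drug comparisons use. The change with ICG-001 at 24 h minus that at 6 h was -0.34 ± 0.08 (-0.28 under the deposited scaling).

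The other VEGFA probe sets gave the same directions in the 3 main comparisons with other sizes. Both carry the _x_at suffix, with which the manufacturer marks probe sets whose probes may bind other transcripts too, and _s_at marks probes shared by several transcripts. On 212171_x_at mean intensity was 697 ± 27.8 with ICG-001 and 269 ± 18.5 with DMSO at 6 h, and 676 ± 20.1 with ICG-001 and 297 ± 42.9 with DMSO at 24 h (SD, n = 3 each). Its log2 changes were 1.19 ± 0.10 and 0.98 ± 0.10 (1.32 and 1.16 under the deposited scaling). On 211527_x_at the means were 198 ± 8.84 with ICG-001 and 56.7 ± 5.71 with DMSO at 6 h, and 219 ± 25.5 with ICG-001 and 55.8 ± 4.74 with DMSO at 24 h. Here the log2 changes were 1.57 ± 0.11 at 6 h and 1.66 ± 0.11 at 24 h (1.56 and 1.71 under the deposited scaling). On both of these probe sets each ICG-001 array lay above each DMSO array of its time.

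The probe sets disagreed on the size of the knockdown change and on the effect of time. Mean intensity with CTNNB1 siRNA was 206 ± 3.91 on 212171_x_at and 48.3 ± 2.60 on 211527_x_at, against 259.8 ± 13 and 61.1 ± 0.226 with control siRNA (SD, n = 2 each). The log2 changes of -0.29 ± 0.12 on 212171_x_at and -0.24 ± 0.13 on 211527_x_at (-0.31 and -0.26 under the deposited scaling) were smaller than that on 210512_s_at. Between the times, the change with ICG-001 at 24 h minus that at 6 h was -0.20 ± 0.14 on 212171_x_at and 0.09 ± 0.16 on 211527_x_at, so 1 of the 3 probe sets gave the other sign. The DMSO arrays at 24 h differed from those at 6 h by 0.11 ± 0.10 on 212171_x_at and -0.05 ± 0.11 on 211527_x_at. Their ranges overlapped on both, so the higher DMSO level at 24 h was seen on 210512_s_at alone. The mean over the 3 VEGFA probe sets changed by 1.46 at 6 h, 1.30 at 24 h and -0.44 with CTNNB1 siRNA on the log2 scale.

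**Figure D1:**
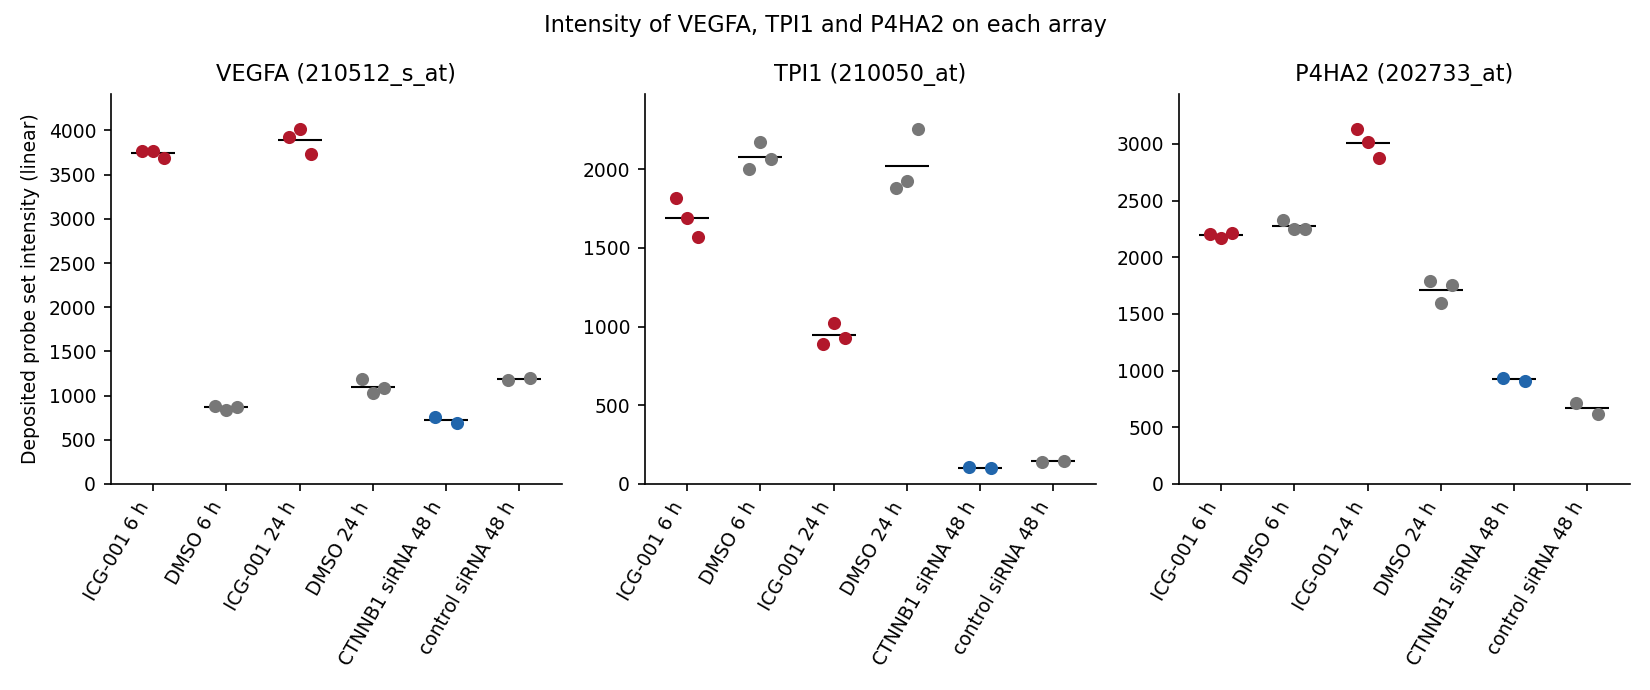
Deposited intensity (linear scale, starting at 0) of VEGFA (210512_s_at), TPI1 and P4HA2 on each of the 16 arrays, with 1 point per array and a bar at the group mean. Red points are ICG-001 arrays, blue points CTNNB1 siRNA arrays and grey points their controls. VEGFA stood at 3692 to 4017 with ICG-001 and TPI1 at 97.7 to 147 on the siRNA arrays, and P4HA2 was highest with ICG-001 at 24 h.

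TPI1 was lower with ICG-001, and more so at 24 h than at 6 h. Probe set 210050_at read 1818, 1691 and 1567 with ICG-001 at 6 h, against 2000.2, 2172 and 2066 with DMSO. At 24 h it read 892, 1023 and 925 with ICG-001, against 1878, 1928 and 2256 with DMSO. The groups did not overlap at either time, and the gap was small at 6 h and wide at 24 h. Means were 1692 ± 125 with ICG-001 and 2079 ± 86.8 with DMSO at 6 h, and 947 ± 68.1 with ICG-001 and 2021 ± 205 with DMSO at 24 h (SD, n = 3 each). The log2 change was -0.68 ± 0.07 at 6 h and -1.47 ± 0.07 at 24 h, and -0.30 and -1.08 under the deposited scaling. The change at 24 h minus that at 6 h was -0.79 ± 0.10 (-0.78 under the deposited scaling). The DMSO arrays of both times overlapped, with a log2 difference of -0.04 ± 0.07 (-0.05 under the deposited scaling), so the levels with ICG-001 carried nearly all of the difference between the times.

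On the siRNA arrays TPI1 was far dimmer, at 108 and 97.7 with CTNNB1 siRNA and 139 and 147 with control siRNA. Both CTNNB1 siRNA arrays lay below both controls, with means of 103 ± 7.37 and 143 ± 5.21 (SD, n = 2 each) and a log2 change of -0.38 ± 0.09 (-0.42 under the deposited scaling). The lowest array of the drug experiment, at 892, was 6.08 times the highest siRNA array. For P4HA2 that ratio was 1.71, and for VEGFA on 210512_s_at the experiments overlapped (0.700). No probe set in the table had a coefficient of variation under 0.40, and a gap between the experiments adds to that value. The ratios are therefore a description only. TPI1 is known to have processed pseudogenes, and the probe sequences were not analysed here, so a share of its signal that comes from copies was not tested.

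In the table of RefSeq promoter windows used here (GRCh38.p14) 2 of the 3 genes matched, and the 250 bases before each annotated start are shown because the core of the HIF response element is a short word that can be looked for in them. The words ACGTG and GCGTG were searched on both strands, and capitals mark a match. On the minus strand a match to ACGTG reads as CACGT in the letters below. The matches do not overlap. In the table TPI1 has 2 starts, on chromosome 12 plus strand at chr12:6867281-6867530 and chr12:6867855-6868104, and P4HA2 has 1, on chromosome 5 minus strand at chr5:132227092-132227341.
TPI1 first start: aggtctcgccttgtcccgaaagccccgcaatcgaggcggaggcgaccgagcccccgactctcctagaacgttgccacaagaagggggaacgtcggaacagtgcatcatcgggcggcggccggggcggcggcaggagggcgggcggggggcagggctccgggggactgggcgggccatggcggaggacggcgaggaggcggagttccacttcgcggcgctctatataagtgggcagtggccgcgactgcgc
TPI1 second start: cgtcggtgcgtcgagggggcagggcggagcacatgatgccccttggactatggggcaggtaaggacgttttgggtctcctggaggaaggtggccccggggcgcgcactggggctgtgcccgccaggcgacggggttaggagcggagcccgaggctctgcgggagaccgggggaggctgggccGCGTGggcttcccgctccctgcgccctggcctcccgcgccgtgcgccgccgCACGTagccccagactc
P4HA2 start: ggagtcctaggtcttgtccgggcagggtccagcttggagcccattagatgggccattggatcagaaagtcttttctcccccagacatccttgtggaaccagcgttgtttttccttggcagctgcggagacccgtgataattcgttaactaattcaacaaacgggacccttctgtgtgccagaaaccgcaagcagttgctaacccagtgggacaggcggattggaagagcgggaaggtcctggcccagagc
The window of the second TPI1 start held GCGTG 68 bases before the start and ACGTG on the minus strand 17 bases before it. The other 2 windows held neither word in these letters. Of 35116 promoter windows of this length in the table, 18.5% held ACGTG, 32.2% held GCGTG and 43.2% held at least 1 of them, so a match is common. VEGFA is named only.

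P4HA2 was higher with ICG-001 than with DMSO at 24 h, while its direction at 6 h was not settled. Probe set 202733_at read 2203, 2174 and 2218 with ICG-001 at 6 h, against 2328, 2252 and 2251 with DMSO. At 24 h it read 3132, 3019 and 2873 with ICG-001, against 1788, 1595 and 1755 with DMSO. All ICG-001 arrays lay below all DMSO arrays at 6 h, by a narrow gap, and all lay above them at 24 h. Means were 2198 ± 22.3 with ICG-001 and 2277 ± 44.5 with DMSO at 6 h, and 3008 ± 129 with ICG-001 and 1713 ± 103 with DMSO at 24 h (SD, n = 3 each). At 6 h the log2 change was -0.50 ± 0.06 after quantile normalization and -0.05 ± 0.06 under the deposited scaling. Its size at 6 h thus depended on the scaling, and under the deposited scaling it was smaller than its SE. At 24 h it was 0.24 ± 0.06 and 0.81 under the deposited scaling. The change at 24 h minus that at 6 h was 0.74 ± 0.08 (0.86 under the deposited scaling), rank 127 of 5250 genes from the highest (122 under the deposited scaling).

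Both arms moved between the times. P4HA2 was lower on the DMSO arrays at 24 h than at 6 h by a log2 difference of -0.39 ± 0.06 (-0.41 under the deposited scaling), and its mean intensity with ICG-001 at 24 h was 1.37 times that at 6 h. With CTNNB1 siRNA P4HA2 read 933 and 909, against 718 and 617 with control siRNA, so both CTNNB1 siRNA arrays lay above both controls. The means were 921 ± 17.5 and 667 ± 71.3 (SD, n = 2 each), and the log2 change was 0.43 ± 0.07 (0.46 under the deposited scaling). P4HA2 and VEGFA were both higher with ICG-001 at 24 h, and stood on opposite sides of control in the knockdown.

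**Figure D2:**
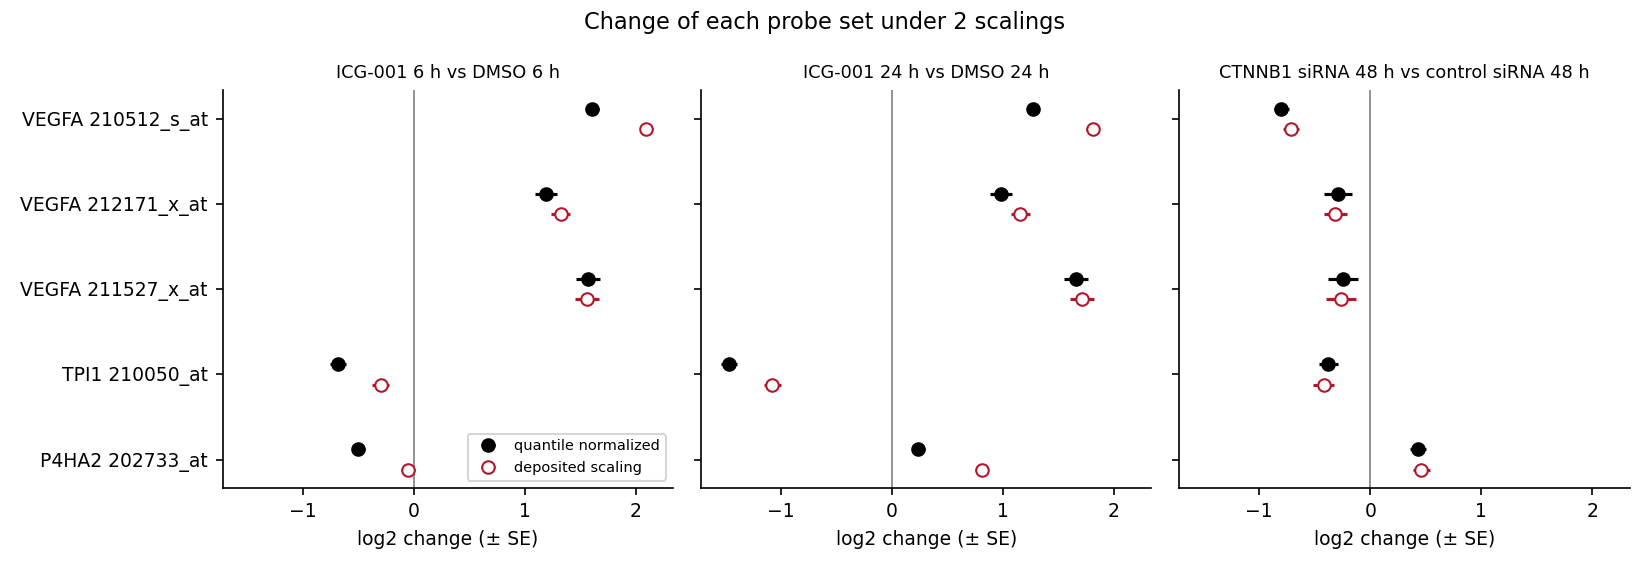
Log2 change (± SE) of the 5 probe sets in the 3 main comparisons, as black filled points after quantile normalization and as red open points under the deposited scaling. P4HA2 at 6 h lay at -0.50 in one and -0.05 in the other, while the VEGFA probe sets lay above 0 with ICG-001 and below 0 with CTNNB1 siRNA in both.

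Across the 6 groups the order of mean deposited intensity differed for each gene. VEGFA on 210512_s_at was highest with ICG-001 at 24 h, then ICG-001 at 6 h, control siRNA, DMSO at 24 h, DMSO at 6 h and CTNNB1 siRNA. The arrays of the ICG-001 groups overlapped, as did those of control siRNA and DMSO at 24 h. TPI1 was highest with DMSO at 6 h, then DMSO at 24 h, whose ranges overlapped, then ICG-001 at 6 h, ICG-001 at 24 h, control siRNA and CTNNB1 siRNA, each apart from the next. For P4HA2 the order was ICG-001 at 24 h, DMSO at 6 h, ICG-001 at 6 h, DMSO at 24 h, CTNNB1 siRNA and control siRNA, with all neighbours apart. That P4HA2 order depended on the scaling. After quantile normalization ICG-001 at 6 h (-0.50) lay further below DMSO at 6 h than DMSO at 24 h did (-0.39). The change of 0.24 with ICG-001 at 24 h did not make up for that -0.39, so DMSO at 6 h was then the highest drug experiment group. Over the 12 arrays of the drug experiment, which share 4 groups and their scaling, Pearson's r between VEGFA and TPI1 was -0.85 (-0.76 under the deposited scaling). It was -0.42 between VEGFA and P4HA2 and 0.0065 between TPI1 and P4HA2, against 0.60 and -0.82 under the deposited scaling, so neither of the last pair of relations had a settled sign.

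Among the other VEGF ligands and receptors, 3 of 9 listed genes were measured: the lymphatic growth factor gene VEGFC, the placental growth factor gene PGF, and KDR, the main signalling receptor for VEGFA. After quantile normalization PGF fell with ICG-001, with a log2 change of -0.41 ± 0.05 at 6 h and -0.40 ± 0.05 at 24 h (adjusted p = 9.82e-06 and 8.78e-06), and it was the only 1 of the 3 genes past the test. Under the deposited scaling its sign turned, with 0.13 (adjusted p = 0.195) and 0.10 (adjusted p = 0.253), so PGF has no settled direction. Its mean intensity was 3276 ± 144 with ICG-001 and 2992 ± 98.2 with DMSO at 6 h, and 3602 ± 97.7 and 3362 ± 122 at 24 h (SD, n = 3 each). KDR was near background, at 1.38 to 21.3 on all 16 arrays, with log2 changes of -0.42 ± 0.21 at 6 h and 0.09 ± 0.21 at 24 h (adjusted p = 0.266 and 0.854). VEGFC, at group means of 5.56 to 27.9, changed by -0.14 ± 0.20, -0.21 ± 0.20 and 0.21 ± 0.25 in the 3 main comparisons (adjusted p = 0.871, 0.583 and 0.687). Of all 5250 genes, 5.56% rose and 8.23% fell at 6 h, and 9.22% rose and 11.3% fell at 24 h.

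Of 12 listed genes for other angiogenic factors 8 were measured, and at 6 h with ICG-001 2 rose and 1 fell (2 and 0 under the deposited scaling, where 7.73% of all genes rose and 4.65% fell and 4 of the 8 had an unadjusted p under 0.05 in limma). FGF2, a fibroblast growth factor that acts on endothelial cells, rose by 0.53 ± 0.09 (adjusted p = 0.000133), at an intensity of 668 ± 36.6 with ICG-001 and 397 ± 25 with DMSO (SD, n = 3 each). The chemokine gene CXCL8 rose by 0.29 ± 0.09 (adjusted p = 0.0264), and by 0.52 under the deposited scaling (adjusted p = 0.000104). After quantile normalization that call ended without ICG-001 6 h replicate 2 (0.27, adjusted p = 0.0978) or 3 (0.28, adjusted p = 0.0898), or DMSO 6 h replicate 1 (0.23, adjusted p = 0.165) or 2 (0.29, adjusted p = 0.075). THBS1, whose product thrombospondin 1 restrains vessel growth, fell by 0.55 ± 0.05 (adjusted p = 1.67e-07), and stood at -0.17 under the deposited scaling (adjusted p = 0.0617) and at -0.22 with the mean of its probe sets (adjusted p = 0.0707). The list's median log2 change was -0.08, beside -0.02 over all genes.

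At 24 h 1 of these 8 genes rose and 1 fell (3 and 1 under the deposited scaling, where 14.1% of all genes rose and 7.33% fell), and the median was 0.09 beside -0.02 over all genes. PDGFA, a platelet-derived growth factor chain, rose by 0.36 ± 0.07 (0.61 under the deposited scaling, adjusted p = 0.00103 and 8.72e-06), with 973 ± 117 on the ICG-001 arrays and 627 ± 17.6 on the DMSO arrays. FGF2, above DMSO at 6 h, fell at 24 h by 0.57 ± 0.09 (adjusted p = 4.1e-05), with 326 ± 18.9 and 411 ± 19.6, and stood at -0.32 under the deposited scaling (adjusted p = 0.00919). THBS1 at 24 h stood at 0.07 ± 0.05 (adjusted p = 0.462) after quantile normalization and at 0.66 (adjusted p = 1.8e-08) under the deposited scaling. The THBS1 value was thus below 0 with ICG-001 at 6 h and above 0 at 24 h in both scalings, as for P4HA2. The P4HA2 value at 6 h was smaller than its SE under the deposited scaling. In neither scaling did both THBS1 values pass the test. With CTNNB1 siRNA 2 of the 8 genes rose and 0 fell (of all genes 6.19% rose and 5.83% fell, or 5.03% and 4.06% under the deposited scaling; 2 of the 8 had an unadjusted p under 0.05 in limma). THBS1 rose by 1.54 ± 0.06 (adjusted p = 1.22e-11), at 1010 ± 8.17 with CTNNB1 siRNA and 330.1 ± 35.8 with control siRNA (SD, n = 2 each), and by 0.77 with the mean of its probe sets (adjusted p = 2.54e-05). PDGFA rose by 0.57 ± 0.09 (adjusted p = 0.000254).

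Among the HIF target genes other than the members, 11 of 26 listed were measured. With ICG-001 at 6 h, 3 rose and 1 fell in both scalings. Of all 5250 genes 5.56% rose and 8.23% fell there, or 7.73% and 4.65% under the deposited scaling. The median log2 change of the 11 was -0.08, beside -0.02 over all genes. DDIT4, an inhibitor of mTOR signalling that is also induced by amino acid and endoplasmic reticulum stress, rose by 1.34 ± 0.06 (adjusted p = 1.66e-12). Its intensity was 9090.4 ± 246 with ICG-001 and 2615 ± 72.5 with DMSO (SD, n = 3 each). NDRG1, a stress-responsive gene linked to differentiation, rose by 0.89 ± 0.06 (1.53 under the deposited scaling, adjusted p = 1.02e-09 and 2.1e-13), with 6124 ± 221 and 2115 ± 30.5. MXI1, which encodes an antagonist of MYC, rose by 0.42 ± 0.05 (0.81 under the deposited scaling, adjusted p = 2e-06 and 1.08e-10). The carbonic anhydrase gene CA12 fell by 1.03 ± 0.11 (adjusted p = 4.98e-07), with 83.2 ± 5.68 and 169 ± 7.98, and stood at -0.54 with the mean of its probe sets (adjusted p = 0.0249).

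The same genes passed at 24 h, with 1 more fall. DDIT4 rose by 1.08 ± 0.06 (1.72 under the deposited scaling, adjusted p = 1.82e-11 and 1.57e-15), at 8369 ± 288 with ICG-001 and 2535 ± 21.3 with DMSO, NDRG1 rose by 0.89 ± 0.06 (1.56 under the deposited scaling) and MXI1 by 0.62 ± 0.05 (1.20 under the deposited scaling). CA12 fell by 0.98 ± 0.11 (adjusted p = 6.58e-07) and TFRC, the transferrin receptor gene, fell by 1.08 ± 0.14 (adjusted p = 5.53e-06), at 41.9 ± 14.6 with ICG-001 and 100.4 ± 13.2 with DMSO. The counts were thus 3 risen and 2 fallen of 11, with a median of 0.14. Among all genes 9.22% rose and 11.3% fell, or 14.1% and 7.33% under the deposited scaling. Under the deposited scaling ANGPTL4, a secreted regulator of lipoprotein lipase, was the additional gene past the test (0.59, adjusted p = 0.0343), against 0.48 ± 0.25 (adjusted p = 0.238) after quantile normalization. BNIP3, KDM3A, KDM4B, EPO and TMEM45A passed in neither drug comparison in either scaling, and their group means on the drug arrays ran from 3.13 to 67.8.

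With CTNNB1 siRNA 2 of the 11 HIF target genes rose and 0 fell in both scalings. Of the 11, 3 had an unadjusted p under 0.05 in limma. Their median was 0.09, beside 0.01 over all genes. The shares over all genes were 6.19% risen and 5.83% fallen, or 5.03% and 4.06% under the deposited scaling. NDRG1 rose by 0.37 ± 0.07 (adjusted p = 0.00176, and 0.0604 on the siRNA arrays alone; 0.24 without control siRNA 48 h replicate 2, adjusted p = 0.0258) and, unlike VEGFA, was therefore above its control in all 3 comparisons. CA12 rose by 0.43 ± 0.13 (adjusted p = 0.041), with 316 ± 15.4 and 212 ± 9.21 (SD, n = 2 each). Leaving out any 1 of the 4 siRNA arrays ended the CA12 call: 0.40 (adjusted p = 0.151) without CTNNB1 siRNA 48 h replicate 1, 0.46 (adjusted p = 0.0925) without its replicate 2, 0.44 (adjusted p = 0.0869) without control siRNA 48 h replicate 1 and 0.41 (adjusted p = 0.133) without its replicate 2. With the mean of its probe sets CA12 stood at 0.18 (adjusted p = 0.655). DDIT4 stood at 0.20 ± 0.07 (adjusted p = 0.063) and MXI1 at -0.04 ± 0.06 (adjusted p = 0.768). Between the DMSO groups, where 4.69% of all genes rose and 3.94% fell at 24 h relative to 6 h, MXI1 rose by 0.61 ± 0.05 and NDRG1 fell by 0.27 ± 0.06 (adjusted p = 4.89e-08 and 0.00519).

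**Figure D3:**
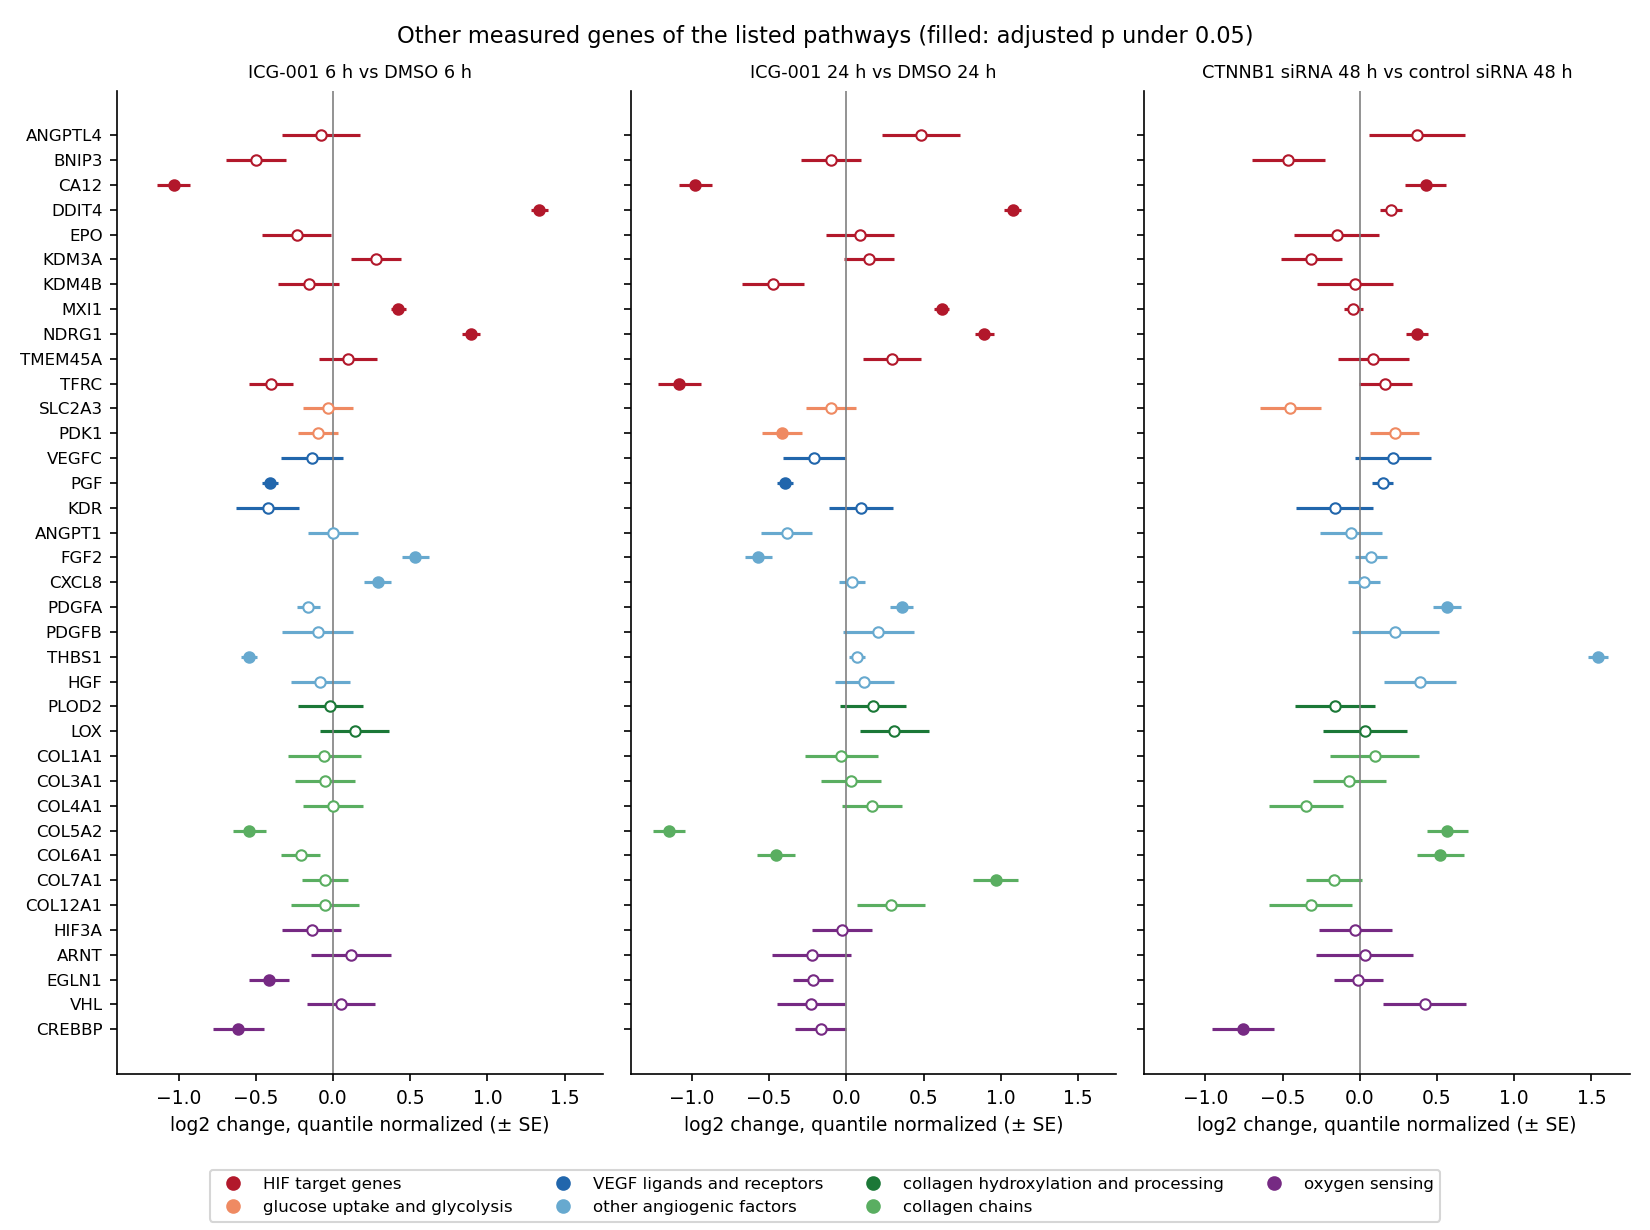
Log2 change (± SE) after quantile normalization of every measured gene of the 7 pathway lists in the 3 main comparisons, with filled points for an adjusted p under 0.05. ANGPTL4, which is on both the HIF target and the angiogenic list, is drawn once. DDIT4 (1.34 and 1.08) and NDRG1 (0.89 and 0.89) stand to the right with ICG-001 at both times and THBS1 (1.54) stands farthest right with CTNNB1 siRNA.

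Beside TPI1, 2 of the 24 other listed genes for glucose uptake and glycolysis were measured. SLC2A3, a glucose transporter gene, lay near background, with group means of 2.31 to 14.1 and log2 changes of -0.03 ± 0.16, -0.10 ± 0.16 and -0.45 ± 0.20 in the 3 main comparisons (adjusted p = 0.973, 0.788 and 0.176). PDK1, a pyruvate dehydrogenase kinase gene, changed by -0.10 ± 0.13 at 6 h (adjusted p = 0.863) and fell at 24 h by 0.42 ± 0.13 (adjusted p = 0.0273). The PDK1 call ended under the deposited scaling (-0.27, adjusted p = 0.143). It also ended when ICG-001 24 h replicate 1 (-0.43, adjusted p = 0.0534) or 3 (-0.28, adjusted p = 0.191) was left out, or replicate 1 (-0.38, adjusted p = 0.0936) or 2 (-0.35, adjusted p = 0.13) of DMSO 24 h. No probe set in the table had a coefficient of variation under 0.40, so absent genes of a pathway, or absent probe sets of a member, may have varied little. The shares, percentiles and ranks over all genes likewise refer to this table only. P4HA2, at 0.414, was itself near that limit, and VEGFA had 0.703 and TPI1 0.628. These values are over all 16 arrays, so the gap between the drug and the siRNA experiment is part of them.

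For P4HA2, 2 of 23 other listed genes for collagen hydroxylation and processing were measured, PLOD2, a lysyl hydroxylase gene, and LOX, which encodes the enzyme that starts collagen cross-linking. Neither passed the test in any comparison (limma; 0 of the 2 had an unadjusted p under 0.05 in each comparison, in both scalings), and their group means were 6.16 to 19.3. Their log2 changes were -0.02 ± 0.21 and 0.14 ± 0.22 at 6 h and 0.17 ± 0.21 and 0.31 ± 0.22 at 24 h. Of 13 listed collagen chains, the substrates of the enzyme, 7 were measured. With ICG-001 0 rose and 1 fell at 6 h (1 of the 7 had an unadjusted p under 0.05 in limma), with a median of -0.05. At 24 h 1 rose and 2 fell (1 and 1 under the deposited scaling), with a median of 0.03. Among all genes 5.56% rose and 8.23% fell at 6 h. At 24 h these shares were 9.22% and 11.3%, or 14.1% and 7.33% under the deposited scaling.

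COL5A2, a chain of type V collagen, fell at both times, with a log2 change of -0.54 ± 0.11 at 6 h (adjusted p = 0.000937) and -1.15 ± 0.11 at 24 h (adjusted p = 6.72e-08), at 134 ± 16.5 with ICG-001 and 273 ± 27.6 with DMSO at the later time. COL7A1, the chain of anchoring fibrils, rose at 24 h by 0.97 ± 0.15 (adjusted p = 4.06e-05), at 226 ± 17.2 and 104 ± 16.9, and stood at -0.05 ± 0.15 at 6 h (adjusted p = 0.952). COL6A1, a chain of type VI collagen, fell at 24 h by 0.46 ± 0.13 (adjusted p = 0.0117). That call ended under the deposited scaling (-0.31, adjusted p = 0.0641) and with the mean of its probe sets (-0.27, adjusted p = 0.153). It ended as well when replicate 2 of ICG-001 24 h (-0.39, adjusted p = 0.0658) or of DMSO 24 h (-0.32, adjusted p = 0.096) was left out. With CTNNB1 siRNA 6.19% of all genes rose and 5.83% fell. There 2 of the 7 chains rose and 0 fell (2 with an unadjusted p under 0.05 in limma). They were COL5A2 (0.57 ± 0.13, adjusted p = 0.00698) and COL6A1 (0.52 ± 0.15, adjusted p = 0.0325), which stood on the same side of control as P4HA2. The COL5A2 call ended without CTNNB1 siRNA 48 h replicate 1 (0.49, adjusted p = 0.0611) or control siRNA 48 h replicate 2 (0.49, adjusted p = 0.0597). The COL6A1 call ended without any 1 of the 4 siRNA arrays, at 0.48 to 0.56 with adjusted p between 0.0775 and 0.115.

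Of 13 listed genes of oxygen sensing 5 were measured, and 2 fell with ICG-001 at 6 h after quantile normalization (1 under the deposited scaling). The share of all genes that fell there was 8.23%, or 4.65% under the deposited scaling. EGLN1, the main HIF prolyl hydroxylase, fell by 0.41 ± 0.13 (adjusted p = 0.0371), at 82.5 ± 12.9 with ICG-001 and 108 ± 5.23 with DMSO (SD, n = 3 each), and stood at -0.35 under the deposited scaling (adjusted p = 0.0898). The EGLN1 call ended without any 1 of ICG-001 6 h replicates 2 (-0.44, adjusted p = 0.0702) and 3 (-0.30, adjusted p = 0.232) and DMSO 6 h replicates 1 (-0.44, adjusted p = 0.0666), 2 (-0.38, adjusted p = 0.14) and 3 (-0.42, adjusted p = 0.0803). It also ended with replicate numbers as a block (adjusted p = 0.0561). At 24 h EGLN1 stood at -0.21 ± 0.13 (adjusted p = 0.321) and with CTNNB1 siRNA at -0.01 ± 0.16 (adjusted p = 0.984). CREBBP, which encodes CBP, was near background, at 3.40 ± 1.52 with ICG-001 and 14.7 ± 6.75 with DMSO at 6 h, and its fall by 0.61 ± 0.17 there (adjusted p = 0.0144) ended without ICG-001 6 h replicate 1 (-0.55, adjusted p = 0.0769) or DMSO 6 h replicate 1 (-0.47, adjusted p = 0.104) or 2 (-0.60, adjusted p = 0.0505).

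With CTNNB1 siRNA CREBBP fell by 0.76 ± 0.20 (adjusted p = 0.019), against -0.55 under the deposited scaling (adjusted p = 0.153). That call ended too without CTNNB1 siRNA 48 h replicate 2 (-0.69, adjusted p = 0.0934) or control siRNA 48 h replicate 2 (-0.72, adjusted p = 0.0819). HIF3A, the gene of a less studied HIF α subunit, ARNT, the gene of their shared partner, and VHL were near background, with group means of 3.00 to 31.5. None of HIF3A, ARNT and VHL passed the test in the 3 main comparisons in either scaling. ARNT changed by 0.12 ± 0.26 at 6 h and -0.22 ± 0.26 at 24 h, VHL by 0.05 ± 0.22 and -0.23 ± 0.22 and HIF3A by -0.14 ± 0.19 and -0.03 ± 0.19.

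Between the times, 3.89% of all genes had a higher and 3.92% a lower log2 change with ICG-001 at 24 h than at 6 h in the test of that difference. Of the 8 angiogenic factors, THBS1 (0.62 ± 0.07, adjusted p = 1.59e-05) and PDGFA (0.52 ± 0.10, adjusted p = 0.00284) had the higher change at 24 h and FGF2 the lower one (-1.10 ± 0.12, adjusted p = 6.61e-06). The THBS1 difference was 0.36 (adjusted p = 0.0547) with the mean of its probe sets, and that of PDGFA 0.38 (adjusted p = 0.0576) under the deposited scaling. With each array centred on its median the PDGFA difference was 0.26 (adjusted p = 0.308). The differences of VEGFA, TPI1 and P4HA2 given above came from the same model. Of the HIF target genes that rose with ICG-001, DDIT4 (-0.26 ± 0.08, adjusted p = 0.0521) and MXI1 (0.19 ± 0.07, adjusted p = 0.12) did not pass it. Under the deposited scaling the MXI1 difference was 0.40 and passed (adjusted p = 0.000571).

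The genes whose pattern over the 12 drug arrays was most like that of each member were listed by Pearson's r, among genes above the 25th percentile of mean log2 value (4.779). The points share 4 groups, so a high r says only that the group means are ordered and spaced alike. For VEGFA they were ERN1 (0.994), a sensor of unfolded protein, the kinase gene PIM1 (0.994), the alanyl-tRNA synthetase gene AARS1 (0.992), CHAC1 (0.992), which encodes a glutathione-degrading enzyme, and the asparagine synthetase gene ASNS (0.992). They were also alike under the deposited scaling, with r of 0.994 to 0.997, and over all 16 arrays, with r of 0.866 to 0.977. Mean ASNS intensity was 11957 ± 22.8 with ICG-001 and 1297 ± 20.1 with DMSO at 6 h, and ERN1 had 1448 ± 30.1 and 368 ± 11.9 (SD, n = 3 each). Their log2 changes at 6 h were 2.75 for ASNS and 1.67 for ERN1, beside 1.61 for VEGFA.

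For TPI1 the most alike were SKA3 (0.997), a gene of chromosome attachment to the spindle, SUPV3L1 (0.994), a mitochondrial RNA helicase gene, BCLAF1 (0.991), RUVBL1 (0.991), which encodes an ATPase of chromatin remodelling complexes, and BIRC5 (0.989), the survivin gene. BIRC5 changed by -0.52 at 6 h and -1.15 at 24 h on the log2 scale, at 1423 ± 31.3 with ICG-001 and 2305 ± 97.1 with DMSO at the later time. The likeness of SUPV3L1 dropped to 0.488 under the deposited scaling, and that of BCLAF1 and RUVBL1 turned to -0.58 and -0.70 over all 16 arrays, on which both genes were brighter in the siRNA experiment while TPI1 was dimmer. For P4HA2 the r were lower, with KLHL22 (0.906), the trefoil factor gene TFF2 (0.895), THBS1 (0.881), the homeobox gene LHX2 (0.861) and EME2 (0.838). TFF2 and THBS1 kept 0.937 and 0.932 under the deposited scaling, whereas KLHL22 dropped to 0.655, EME2 to 0.550 and LHX2 to 0.226. TFF2 intensity at 24 h was 2936 ± 136 with ICG-001 and 1702 ± 30.3 with DMSO, and at 6 h 2493 ± 58.8 and 2459 ± 25.8.

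**Figure D4:**
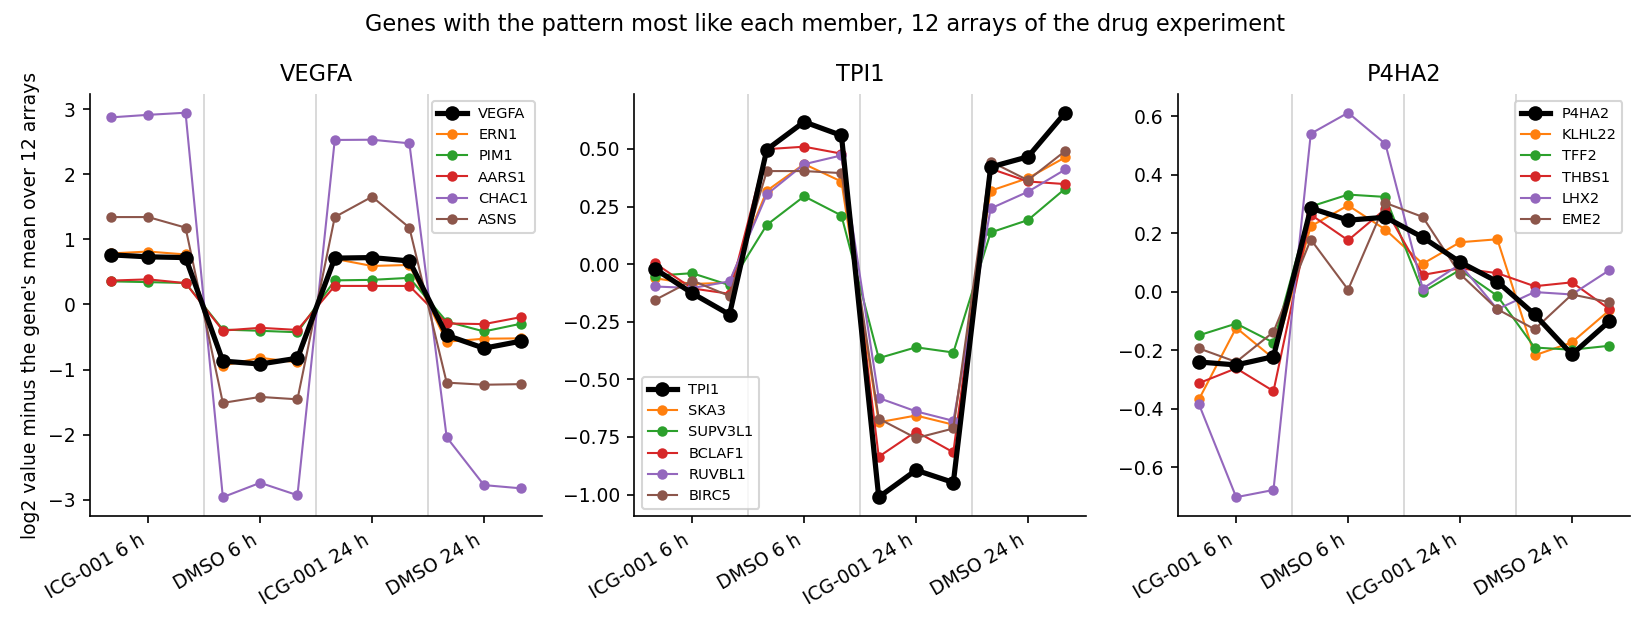
Log2 value after quantile normalization on each of the 12 drug arrays, minus the gene's mean over them, for VEGFA, TPI1 and P4HA2 (black) and the 5 genes most alike to each (colours), with arrays grouped by treatment and time. The axes differ between panels, and lines join arrays of 1 gene for reading only. VEGFA and its alike genes were high on all ICG-001 arrays, and P4HA2 was lowest on this scale with ICG-001 at 6 h.

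Markers of cell types were set beside these results. Of 9 listed markers of pancreatic ductal epithelium 4 were measured (KRT7, KRT19, CDH1 and MUC1), and their summed intensity per array was 2769 to 2850 with ICG-001 and 2715 to 2854 with DMSO at 6 h, 2445 to 2578 with ICG-001 and 2824 to 3340 with DMSO at 24 h, and 521 to 552 with CTNNB1 siRNA and 399.7 to 445 with control siRNA. At 24 h the sum was thus lower with ICG-001 than with DMSO, the direction of TPI1 and the opposite of VEGFA and P4HA2. The keratin gene KRT7 carried it, with 718 ± 15.5 and 1469 ± 189. Its log2 change was -1.35 ± 0.09 (adjusted p = 6.07e-10), or -0.63 (adjusted p = 2.09e-05) with the mean of its probe sets. The 4 markers had no common direction at 24 h. Mean intensity with ICG-001 was higher for MUC1 (1358 against 1240) and CDH1 (341 against 306), and lower for KRT19 (80.6 against 93.9). MUC1 fell after quantile normalization (-0.28 ± 0.08, adjusted p = 0.0154) and stood at 0.13 under the deposited scaling (adjusted p = 0.28). With CTNNB1 siRNA KRT7 rose by 1.06 ± 0.11 (1.32 under the deposited scaling, adjusted p = 1.91e-06 and 4.27e-08), or by 0.43 (adjusted p = 0.0154) with the mean of its probe sets. The cadherin gene CDH1 was near background there, at 15.9 ± 0.997 with CTNNB1 siRNA and 10.5 ± 2.60 with control siRNA (SD). Its rise by 0.42 ± 0.13 (adjusted p = 0.0487) ended under the deposited scaling (0.27, adjusted p = 0.215). The CDH1 call ended too with 64 added (0.18, adjusted p = 0.292) and with replicate numbers as a block (adjusted p = 0.0544). Fitted without the drug experiment, CDH1 stood at 0.42 ± 0.37 (adjusted p = 0.713). With 1 added before log2 CDH1 passed (0.73, adjusted p = 0.00961), so its rise is not settled. The part of these shifts in the members' changes was not tested. The measured markers of other cells had sums below those of the ductal markers on every array. The sums were 5.41 to 30.7 for the 2 of 6 endothelial markers (PECAM1 and KDR) and 4.07 to 31.7 for the 1 of 6 leukocyte markers (PTPRC). For the 3 of 6 fibroblast markers (COL1A1, COL3A1 and DCN) they were 81.0 to 166. None of these markers passed the test in the 3 main comparisons, and none of the 6 acinar markers was measured. Single markers did not all follow the sums. With CTNNB1 siRNA and control siRNA the ductal marker KRT19 had means of 10.2 and 11.8, near background like CDH1. COL1A1 had 90.6 and 78.0 there (n = 2 each).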

How the data were processed

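RNA of AsPC-1 cells was labelled with biotin and hybridised to 16 Affymetrix arrays, per the labels' protocols. The authors deposited 1 intensity per probe set and array on a linear scale. How probes were summarised and arrays scaled is not given in the sources used here. Among 9554 probe sets, 6442 were listed with 1 gene, 252 with several and 2860 with none. Of the 6442, symbols of 6432 were matched to current ones. The 3112 probe sets with several genes or none were not used. The number 16 was added before log2. Because array medians differed by 0.636 (limit 0.5), quantile normalization was applied. The probe set with the highest mean was kept for each of 5250 genes. All 6 groups entered 1 linear model in limma 3.58.1 (R 4.3.3), with 10 residual and 7.843 prior degrees of freedom, two-sided tests and Benjamini-Hochberg adjustment over all genes of a comparison. A gene rose or fell at an adjusted p under 0.05. The number of arrays limits the precision.

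The procedure was tested on simulated data. The members and the gene lists were chosen with earlier results of these data known, so no list is independent evidence. Named were the members, called genes of each list (at most 6), all measured VEGF ligands and receptors, oxygen sensing genes and prolyl hydroxylases, and the 5 genes most alike to each member. Genes of a list without a call are named as further values. Alternatives were the deposited scaling, median centring, quantile normalization within each experiment, 1 or 64 added before log2, a filter at the 25th percentile of mean log2, the mean of all probe sets, the arrays of 1 experiment only, leaving out each array, and the replicate number as a block. Sequences are from RefSeq (GRCh38.p14), of which the 250 bases before each start were used.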

Additional observations from a re-analysis of the deposited data

Results flagged for a closer look

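For 8 genes the change with ICG-001 at 24 h differed from that at 6 h. P4HA2 was marked because all ICG-001 arrays lay below all DMSO arrays at 6 h and above them at 24 h, with a difference of 0.74 on the log2 scale that was not tested, since the gene was chosen with its values known. The direction of P4HA2 at 6 h is not settled. For the other 7 the difference itself passed limma's test. THBS1 differed by 0.62 (adjusted p = 1.59e-05), COL7A1 by 1.02 (adjusted p = 0.00312) and PDGFA by 0.52 (adjusted p = 0.00284), all toward a higher change at 24 h. FGF2 differed by -1.10 (adjusted p = 6.61e-06) and is the gene among these that rose at 6 h and fell at 24 h in both scalings. KRT7 differed by -0.76 (adjusted p = 0.00044) and COL5A2 by -0.61 (adjusted p = 0.0135), which became -0.51 (adjusted p = 0.0502) without ICG-001 24 h replicate 3. TFRC differed by -0.68 (adjusted p = 0.0409). That call ended under the deposited scaling (-0.69, adjusted p = 0.053) and without any 1 of the 12 drug arrays other than ICG-001 6 h replicate 3, ICG-001 24 h replicate 2 and DMSO 24 h replicate 1, at -0.73 to -0.56. The PDGFA call ended under the deposited scaling (0.38, adjusted p = 0.0576) and with each array centred on its median (0.26, adjusted p = 0.308).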

How the results depend on the processing

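At 6 h with ICG-001 the log2 change under the deposited scaling and with each array centred on its median was 2.09 and 2.08 for VEGFA, -0.30 and -0.31 for TPI1 and -0.050 and -0.062 for P4HA2. At 24 h it was 1.81 and 1.68 for VEGFA, -1.08 and -1.21 for TPI1 and 0.81 and 0.68 for P4HA2. With CTNNB1 siRNA VEGFA stood at -0.71 in both. The difference between the times was -0.40 for VEGFA and -0.90 for TPI1 after centring and 0.86 for P4HA2 under the deposited scaling. With the mean of all probe sets VEGFA stood at 1.46 (ICG-001 6 h), -0.44 (CTNNB1 siRNA), 0.12 (DMSO 24 h over 6 h) and -0.15 (between the times), and quantile normalization within each experiment gave -0.47 for TPI1 with CTNNB1 siRNA. The count of called genes moved by over 1.5 times for CTNNB1 siRNA, where it was 414 after centring and 289 on the siRNA arrays alone, a fit with fewer samples, against 631. Signs turned for PGF at 6 h (0.13 deposited, 0.12 centred) and 24 h (0.10 deposited), and for MUC1 at 24 h (0.13 deposited, 0.0026 centred). The causes were not tested. Leaving out 1 array at a time gave -0.86 to -0.74 for VEGFA and 0.34 to 0.52 for P4HA2 with CTNNB1 siRNA, where the lone array left in a group is assumed to vary like the other groups. The directions of VEGFA, TPI1 and P4HA2 in the 3 main comparisons were the same in every alternative run. For P4HA2 at 6 h, however, the change was smaller than its SE under the deposited scaling (-0.05 ± 0.06) and after centring (-0.06 ± 0.08). Its direction at 6 h is therefore not settled. Deviations of same-numbered arrays from their group means correlated at only -0.06 to 0.09. Whether cultures were handled in pairs cannot be read from this, and with 2 arrays per siRNA group both numbers give the same r (0.0055). With replicate numbers as a block, 734, 1093 and 656 genes passed in the 3 main comparisons, against 724, 1076 and 631. The size of the CREBBP change at 6 h, near background, depended on the number added before log2 and stood at -1.76 with 1 added and -0.21 with 64 added.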
